A study of Homo sapiens with 24 samples.

Results

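Collagen chain genes encode the alpha chains that wind in threes into the collagen triple helix. They were taken here as every gene on the array whose symbol is exactly COL, a number, A and a number. Only probe sets that name 1 gene were used, and a gene with several such probe sets was represented by the one with the highest mean over all arrays. The rule found 42 genes among the 22395 genes tested. COL3A1 is not among them because its probe set also names MIR3606, and no probe set was named as COL17A1 alone.

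Messenger RNA was measured in SUM159, a mesenchymal-like triple-negative human breast cancer line, and in T47D, an oestrogen receptor-positive luminal line, both grown with serum. Cells were exposed for 72 h to 5 µM ID8, a small-molecule inhibitor of DYRK kinases, or to the solvent DMSO alone, and the 3 flasks of a treatment were pooled. Every culture was then sorted by the Aldefluor assay, which stains cells for aldehyde dehydrogenase activity, into Aldefluor+ cells, which the study treats as cancer stem cells, and Aldefluor- cells. There were 8 groups, namely DMSO Aldefluor+, DMSO Aldefluor-, ID8 Aldefluor+ and ID8 Aldefluor- in each line, with 3 arrays per group from experiments 2, 3 and 4 for SUM159 and experiments 5, 6 and 7 for T47D. Each line is a single established line, so the spread between arrays is that between experiments on it. All values below are log2 signals on Human Gene ST 2.1 arrays, and a signal is compared only with the same probe set on other arrays.

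Fibril-forming collagens such as types I, III and V make up the bulk of stromal matrix, while type IV chains form the sheet-like network of basement membranes and type VI chains form beaded filaments beside cells. Fibril-associated collagens with interrupted helices, such as type XII, sit on the surface of fibrils and link them to other matrix. In breast tumours most fibrillar collagen is made by stromal fibroblasts, and carcinoma cells make a smaller and line-dependent set. Each chain is hydroxylated and folded in the endoplasmic reticulum, trimmed after secretion, cross-linked by lysyl oxidases and bound by integrins and discoidin domain receptors.

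Most collagen chains had a low mean signal over the 24 arrays. The 24-array mean was below 2 for 31 of the 42 genes (73.8%), compared with 49% of all genes, and a gene below 2 is called low signal here. The other 11 genes were led by COL12A1 with a mean of 8.47, followed by COL8A1 at 4.15, COL6A3 at 3.76, COL4A5 at 3.47, COL4A6 at 2.94 and COL1A1 at 2.75. COL16A1, COL6A2, COL26A1, COL7A1 and COL5A1 had means between 2.01 and 2.38. These means describe single probe sets and do not rank the genes by abundance. They pool the lines and, as the authors adjusted the values for batch, do not give the level in each line.

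The labels and the array quality were examined on marker genes. All 6 mesenchymal markers were higher in SUM159 and all 8 luminal markers were higher in T47D. The log2 differences ran from 0.27 to 0.986 for the mesenchymal and from 0.084 to 1.17 for the luminal markers. Over all genes the SD of the line difference was 0.118 and its largest absolute value 1.18. The signs therefore go with the labels, but these batch-adjusted values do not give the size of the difference between the lines. Of 5 fibroblast markers measured, 3 had means below 2, with PDGFRB at 0.914, and the exceptions were PDPN at 3.25 and THY1 at 2.05. All 5 endothelial markers and 4 of 5 leukocyte markers were below 2, with PTPRC at 0.907 and CD68 at 3.56. No fibroblast, endothelial or leukocyte marker was called in any of the 16 comparisons, where between 0% and 0.875% of all genes were called. CD68 differed with ID8 by -0.71 in SUM159 and by -0.74 in T47D Aldefluor+ cells. Its unadjusted p was 0.00323 and 0.00233 and its adjusted p 0.202 and 0.160 in limma. One array had a narrower spread of signals over all 53617 probe sets. The interquartile range was 2.05 for SUM159 DMSO Aldefluor+ in experiment 4 and 2.17 to 2.33 on the other 23 arrays. Differences of level between the lines are given only as description, because the authors adjusted the values for batch and the experiments lie within a line.

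**Figure D1:**
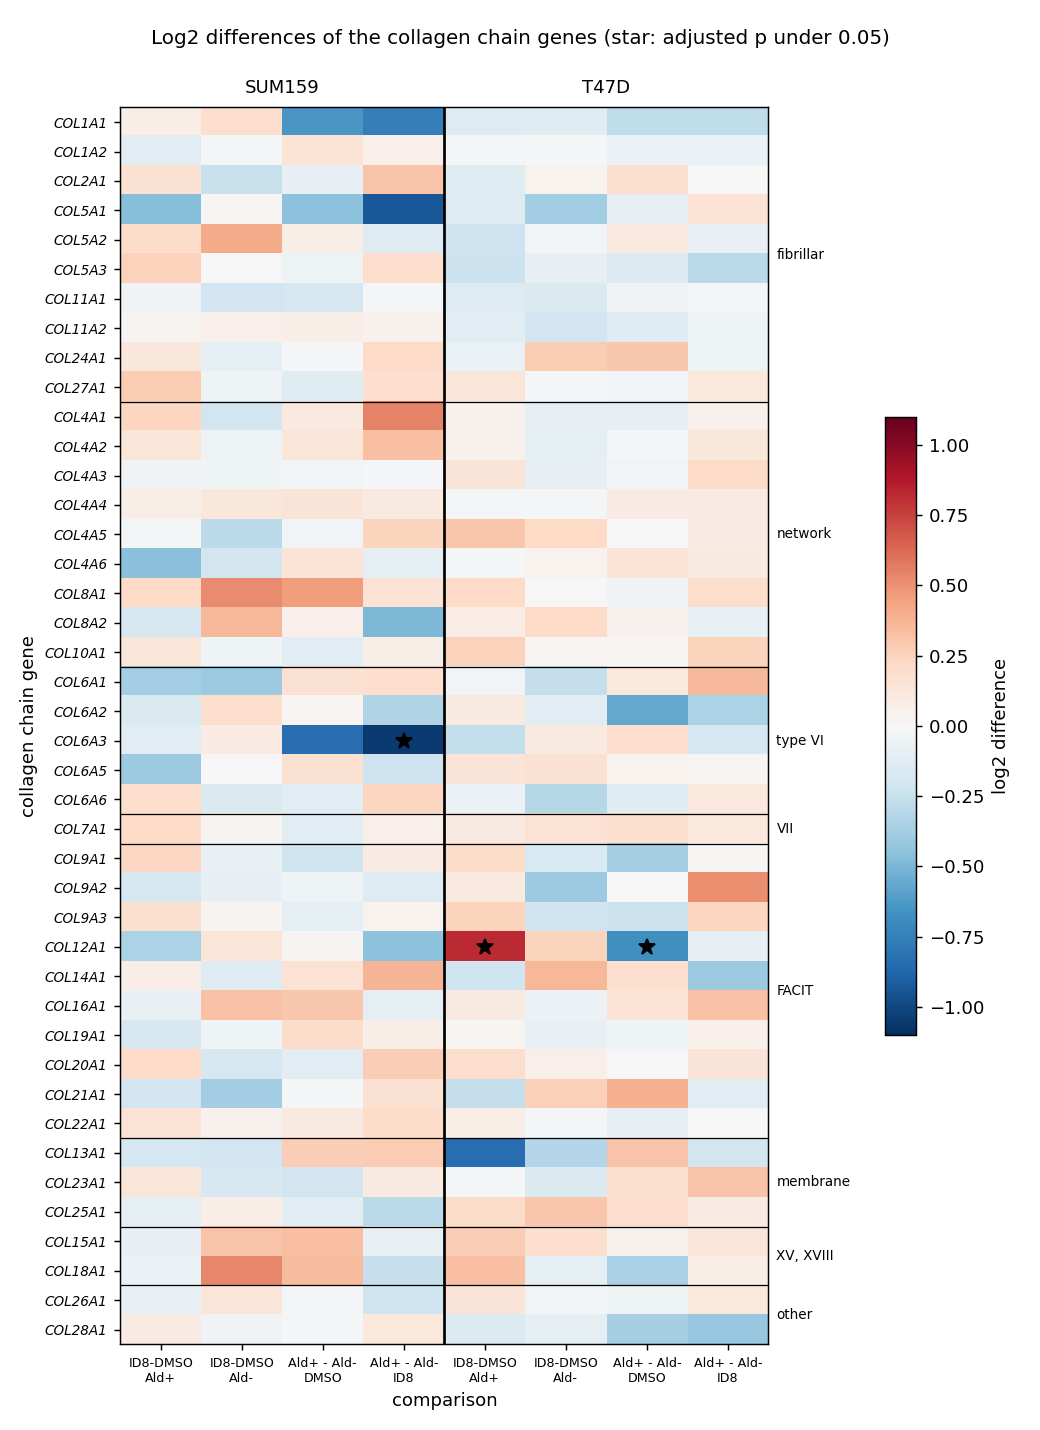
Log2 differences of the 42 collagen chain genes (one per line of the grid, ordered by structural class) in the 8 pairs of groups, SUM159 at left and T47D at right, with red for higher, blue for lower and a star for an adjusted p under 0.05 in limma. Stars mark COL6A3 for the SUM159 Aldefluor difference under ID8, and COL12A1 for ID8 in T47D Aldefluor+ cells and for the T47D Aldefluor difference under DMSO.

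In T47D cells ID8 was accompanied by a rise of COL12A1, which encodes the chain of type XII collagen, a fibril-associated collagen of connective tissue and tumour stroma. The rise was 1.77-fold in Aldefluor+ cells. COL12A1 was also lower in Aldefluor+ than in Aldefluor- cells under DMSO, by 1.60-fold. It was the only 1 of the 42 genes called in T47D, at an adjusted p under 0.05 in limma with Benjamini-Hochberg adjustment over all genes. The probe set shared by COL3A1 and MIR3606, which is not among the 42, was also called in a fit over all probe sets. It was higher in T47D Aldefluor+ cells under DMSO (0.89, adjusted p = 0.0308, limma) and averaged over treatments (0.62, adjusted p = 0.0118). The called share was 1 of 42 for ID8 in Aldefluor+ cells, where 0.375% of all genes were called, and 1 of 42 for the fraction difference under DMSO, where 0.152% were called. At an unadjusted p under 0.05 these comparisons held 2 and 4 of the 42 genes, compared with 10.8% and 8.96% of all genes.

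The gene lies on the minus strand of chromosome 6. The 250 bases before its RefSeq start (GRCh38.p14, chr6:75206054-75206303, minus strand) are shown because this is the collagen promoter whose transcript moved in T47D. Capitals mark a GC box (GGGCGG, which reads CCGCCC on the printed strand) and a TEAD motif (GGAATG).
COL12A1: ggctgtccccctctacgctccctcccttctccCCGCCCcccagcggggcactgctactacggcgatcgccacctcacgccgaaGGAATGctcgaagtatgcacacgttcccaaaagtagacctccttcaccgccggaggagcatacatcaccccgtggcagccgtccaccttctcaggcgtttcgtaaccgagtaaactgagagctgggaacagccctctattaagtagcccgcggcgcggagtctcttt
The GC box begins 218 bases and the TEAD motif 167 bases before the start. Both strands were searched, and the motifs did not overlap. A GC box occurs in 42.6% and the TEAD motif in 11.9% of the 35116 promoter windows of the same length, so a match describes the window and not a bound site.

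In T47D Aldefluor+ cells COL12A1 read 7.96, 8.00 and 7.91 under DMSO in experiments 5, 6 and 7. Under ID8 the same experiments read 8.75, 8.81 and 8.78. The groups did not overlap, and the 3 differences within experiments were 0.79, 0.81 and 0.87. The fitted difference was 0.82 ± 0.101 (SE; 95% interval 0.609 to 1.04; adjusted p = 0.00343, limma). In Aldefluor- cells the values were 8.67, 8.55 and 8.66 under DMSO and 8.86, 8.85 and 8.91 under ID8. These groups did not overlap either, but the difference of 0.24 ± 0.101 did not pass the test (adjusted p = 0.737). None of the 42 genes was called in that comparison (0.0179% of all genes were), and 3 had an unadjusted p under 0.05 in limma, as did 6.6% of all genes.

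Under DMSO every T47D Aldefluor+ array was below every Aldefluor- array, with differences of -0.71, -0.56 and -0.75 and a fitted difference of -0.67 ± 0.101 (adjusted p = 0.00801). Under ID8 the Aldefluor difference of COL12A1 was -0.09 ± 0.101 (95% interval -0.308 to 0.122; adjusted p = 0.868). The test of whether the ID8 response differed between the fractions gave 0.58 ± 0.143 for COL12A1 (95% interval 0.276 to 0.885; unadjusted p = 0.00094, adjusted p = 0.505), which is not a call. No gene was called in that interaction (0% of all genes; 1328 genes, or 5.93%, and 3 of the 42 had an unadjusted p under 0.05 in limma). With the fractions averaged, COL12A1 rose by 0.53 ± 0.0717 with ID8 (adjusted p = 0.00271; 1 of 42 called, 0.505% of all genes). With the treatments averaged it was lower in Aldefluor+ cells by a log2 difference of -0.38 ± 0.0717 (adjusted p = 0.0143; 1 of 42 called, 0.875% of all genes). At an unadjusted p under 0.05 each of these averages held 3 of the 42 genes, compared with 10.9% and 11.1% of all genes. All 6 Aldefluor+ arrays lay apart from the 6 Aldefluor- arrays for COL28A1 alone among the 42 genes (2.38%, compared with 1.89% of all genes). COL28A1 was low signal, with a 24-array mean of 1.22, and was lower in Aldefluor+ cells.

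These calls rested on 3 experiments and did not survive leaving out any of them. Without experiments 5, 6 and 7 in turn, the ID8 difference in Aldefluor+ cells was 0.84, 0.83 and 0.80 with adjusted p = 0.143, 0.100 and 0.138, and the fraction difference under DMSO was -0.65, -0.73 and -0.63 with adjusted p = 0.278, 0.115 and 0.249. For the averaged ID8 response the adjusted p was then 0.0761, 0.128 and 0.0968, and for the averaged fraction difference 0.250, 0.107 and 0.215. Fitted on T47D arrays alone, the fraction difference under DMSO had an adjusted p of 0.0741 and the averaged one of 0.0698. T47D Aldefluor+ cells also yielded more RNA per sorted cell than Aldefluor- cells in 3 of 3 experiments, 1.20 to 1.75 times under DMSO and 1.38 to 1.52 times under ID8. The summed leukocyte markers were 15.6 to 21.1 in T47D DMSO Aldefluor- and 21.7 to 22.8 in DMSO Aldefluor+ arrays, and 15.1 to 20.6 and 15.8 to 16.8 under ID8. Of these markers only CD68 was not low signal, with a 24-array mean of 3.56, and PTPRC was at 0.907. The T47D Aldefluor difference of CD68 under DMSO was 0.51 ± 0.205 (adjusted p = 0.458, limma). The part of the RNA yield and of this sum in the fraction difference and the ID8 response was not tested. In sorted bulk samples fewer cells that express a gene and less RNA per cell cannot be told apart.

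COL12A1 did not take this course in SUM159. Its signal was 8.34, 8.48 and 8.42 in DMSO Aldefluor- cells, 8.57, 8.41 and 8.35 in DMSO Aldefluor+ cells, 8.58, 8.48 and 8.58 in ID8 Aldefluor- cells, and 8.01, 8.08 and 8.21 in ID8 Aldefluor+ cells. The ID8 Aldefluor+ arrays were the lowest of the line. The ID8 difference in SUM159 Aldefluor+ cells was -0.35 ± 0.101 (unadjusted p = 0.0036, adjusted p = 0.209) and in Aldefluor- cells 0.13 ± 0.101 (adjusted p = 0.813). The Aldefluor difference was 0.03 ± 0.101 under DMSO and -0.45 ± 0.101 under ID8 (adjusted p = 0.104). As a description of batch-adjusted values, the mean of COL12A1 was lowest over the 8 groups in T47D DMSO Aldefluor+ cells, at 7.96 ± 0.0427. It was 8.10 ± 0.101 in SUM159 ID8 Aldefluor+ cells. The highest means were 8.78 ± 0.031 and 8.87 ± 0.0364 in T47D ID8 Aldefluor+ and Aldefluor- cells (SD, n = 3). The 4 remaining groups lay between 8.42 and 8.63.

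The ID8 responses of the lines were compared directly. Averaged over fractions, COL12A1 changed by -0.11 ± 0.0717 in SUM159 and by 0.53 ± 0.0717 in T47D, and the difference between the lines was -0.64 ± 0.101 (95% interval -0.855 to -0.425; adjusted p = 0.00661). COL12A1 was the 1 gene of 42 called in this comparison, where 0.647% of all genes were called, and 5 of the 42 had an unadjusted p under 0.05, as did 10.9% of all genes. The call was lost without experiment 3, 5, 6 or 7, with adjusted p = 0.0804, 0.0571, 0.0715 and 0.0649 and differences from -0.66 to -0.61.

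**Figure D2:**
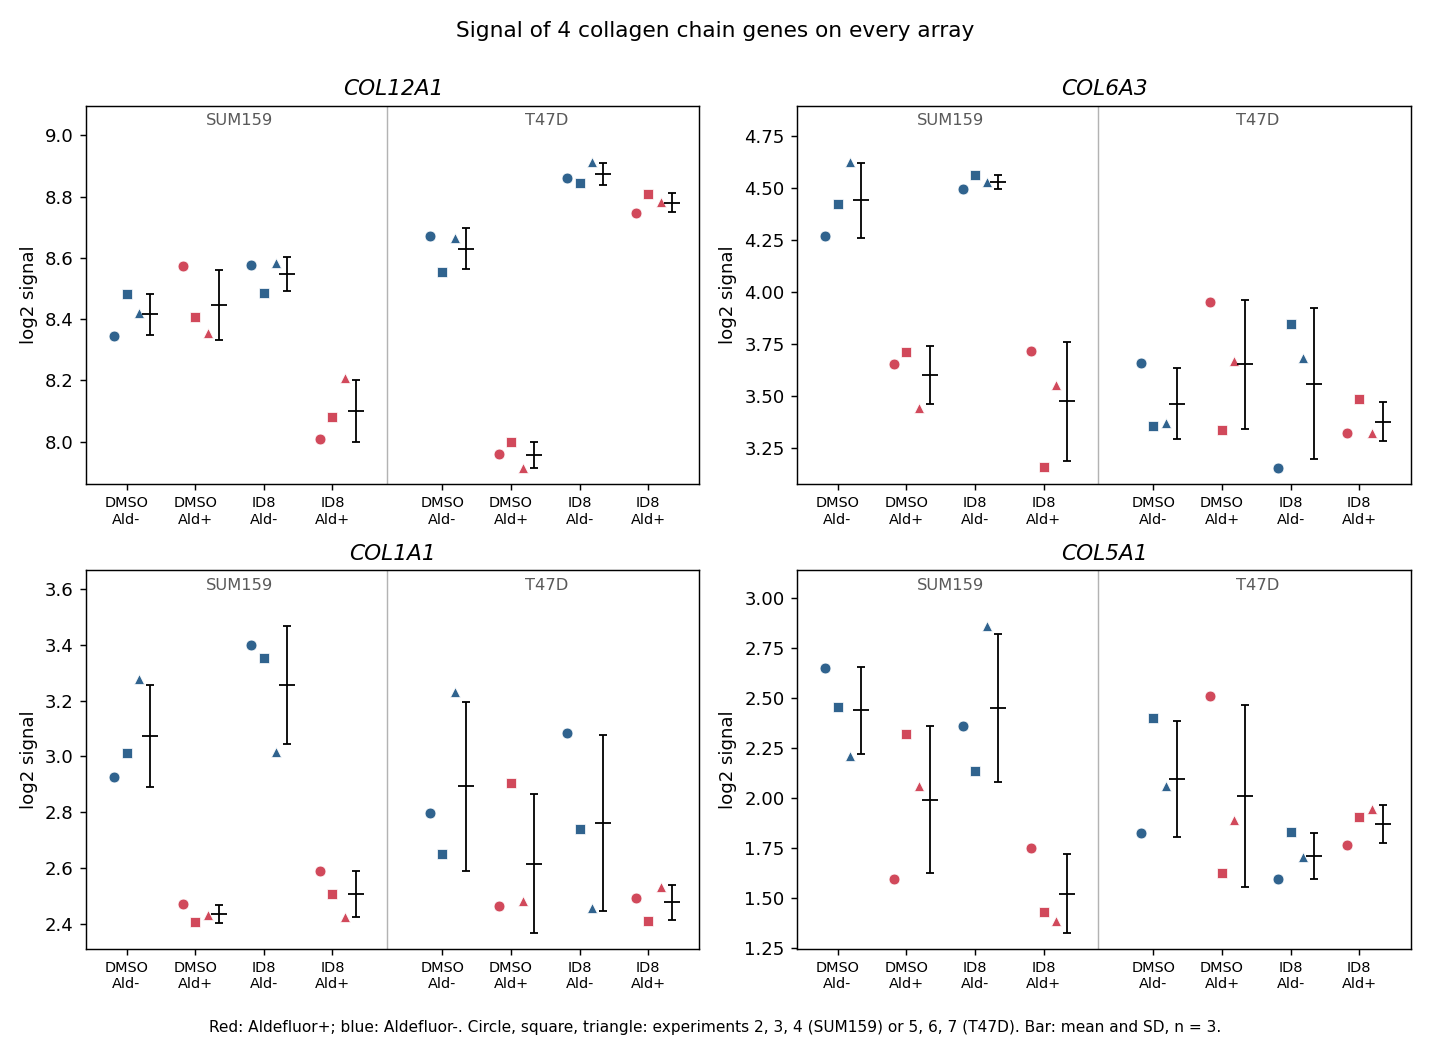
Log2 signal of COL12A1, COL6A3, COL1A1 and COL5A1 on every array, by line, treatment and Aldefluor fraction, with symbols for the experiment and bars for the mean and SD (n = 3). T47D COL12A1 lies between 7.91 and 8.00 in DMSO Aldefluor+ cells and between 8.75 and 8.81 in ID8 Aldefluor+ cells, and SUM159 COL6A3 lies between 3.16 and 3.72 in all 6 Aldefluor+ arrays and between 4.27 and 4.63 in all 6 Aldefluor- arrays.

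The other fibril-associated chains were not called. COL9A2, a low-signal gene for a chain of cartilage type IX collagen, read 1.17, 1.05 and 1.03 in T47D ID8 Aldefluor- cells and 1.78, 1.38 and 1.63 in ID8 Aldefluor+ cells. The groups did not overlap, and the difference was 0.51 ± 0.174 (unadjusted p = 0.0093, adjusted p = 0.342). None of the 42 genes was called in the T47D Aldefluor comparison under ID8, where 0.366% of all genes were, and 1 had an unadjusted p under 0.05 in limma, as did 8.93% of all genes. Over the 10 genes of the class, the median difference with ID8 in T47D Aldefluor+ cells was 0.10, with values from -0.26 to 0.82, and the median over all genes was -0.01.

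In SUM159 cells the Aldefluor+ fraction had less COL6A3 and COL1A1 signal than the Aldefluor- fraction. COL6A3 encodes the large chain of type VI collagen, and COL1A1 encodes the chain present in duplicate in the type I collagen heterotrimer. Averaged over treatments COL6A3 was 1.92-fold and COL1A1 1.62-fold lower in Aldefluor+ cells. They were 2 of 42 genes called (4.76%), where 0.219% of all genes were called. At an unadjusted p under 0.05 there were 5 of the 42 genes, compared with 8.46% of all genes.

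COL6A3 lies on the minus strand of chromosome 2, and the 250 bases before its RefSeq start (GRCh38.p14, chr2:237414165-237414414, minus strand) are printed as the promoter of the chain with the widest Aldefluor difference.
COL6A3: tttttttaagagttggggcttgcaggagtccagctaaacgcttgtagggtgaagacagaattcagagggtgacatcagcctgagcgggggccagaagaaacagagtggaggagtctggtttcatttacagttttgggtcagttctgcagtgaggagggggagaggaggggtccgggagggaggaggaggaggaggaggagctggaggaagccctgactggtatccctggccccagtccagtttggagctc
On either strand the window holds 0 matches to the GC box, the TEAD motif, the TATA box (searched as TATAAA), the CCAAT box or the AP-1 motif (searched as TGANTCA), which says only that these letters are not in it. The TATA box occurs in 10.7%, the CCAAT box in 32% and the AP-1 motif in 6.57% of all windows. RefSeq windows were matched for 31 of the 42 genes, 43 windows in all. The TATA box was found in 7, the CCAAT box in 11, the GC box in 24, the AP-1 motif in 1 and the TEAD motif in 3 of these 43 windows (16.3%, 25.6%, 55.8%, 2.33% and 6.98%).

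In SUM159 DMSO cells COL6A3 read 4.27, 4.42 and 4.63 in Aldefluor- cells and 3.65, 3.71 and 3.44 in Aldefluor+ cells of experiments 2, 3 and 4. Under ID8 it read 4.49, 4.56 and 4.53 in Aldefluor- cells and 3.72, 3.16 and 3.55 in Aldefluor+ cells. All 6 Aldefluor+ arrays were below all 6 Aldefluor- arrays. The fractions did not overlap, in either direction, for 2 of the 42 genes and for 0.889% of all genes. The averaged difference was -0.94 ± 0.141 (95% interval -1.24 to -0.644; adjusted p = 0.00796). Taken by treatment, it was -1.05 ± 0.199 under ID8 (adjusted p = 0.0446) and -0.84 ± 0.199 under DMSO (unadjusted p = 0.000683, adjusted p = 0.256). COL6A3 was the 1 gene of 42 called under ID8, where 0.201% of all genes were called. None of the 42 was called under DMSO, where 0.0223% of all genes were, and 3 had an unadjusted p under 0.05 in limma, as did 7.95% of all genes.

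COL1A1 read 2.93, 3.01 and 3.28 in SUM159 DMSO Aldefluor- cells and 2.47, 2.41 and 2.43 in DMSO Aldefluor+ cells. Under ID8 it read 3.40, 3.35 and 3.01 in Aldefluor- cells and 2.59, 2.51 and 2.42 in Aldefluor+ cells. Its 6 Aldefluor+ arrays were also all below its 6 Aldefluor- arrays. The averaged difference was -0.69 ± 0.133 (95% interval -0.975 to -0.411; adjusted p = 0.0448), with -0.64 ± 0.188 under DMSO (adjusted p = 0.422) and -0.75 ± 0.188 under ID8 (adjusted p = 0.179). COL1A2, the partner chain of type I collagen, was low signal, with group means between 0.938 and 1.11, and its averaged Aldefluor difference did not pass the test. Its sign in SUM159 was opposite to that of COL1A1. Under DMSO it lay between 1.05 and 1.16 in Aldefluor+ and between 0.939 and 0.977 in Aldefluor- cells. Under ID8 the means were 0.992 and 0.938, and the arrays overlapped.

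COL5A1, a chain of the type V collagen that nucleates type I fibrils, had the same sign. It read 2.36, 2.14 and 2.86 in SUM159 ID8 Aldefluor- cells and 1.75, 1.43 and 1.39 in ID8 Aldefluor+ cells, without overlap. The difference was -0.93 ± 0.251 (unadjusted p = 0.00192, adjusted p = 0.228). Under DMSO the arrays read 2.65, 2.46 and 2.21 in Aldefluor- cells and 1.60, 2.32 and 2.06 in Aldefluor+ cells, which overlapped. The averaged difference of -0.69 ± 0.177 did not pass the test (adjusted p = 0.167). Over the 10 fibrillar chains measured of 11, the median of the averaged Aldefluor difference was 0.04, with 6 above 0, and the median over all genes was -0.01.

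The SUM159 calls were lost when an experiment was left out. Without experiments 2, 3 and 4 in turn, the averaged COL6A3 difference was -1.07, -0.89 and -0.88 with adjusted p = 0.0864, 0.158 and 0.170, its difference under ID8 had adjusted p = 0.220, 0.504 and 0.270, and the averaged COL1A1 difference had adjusted p = 0.289, 0.382 and 0.316. The COL6A3 difference under ID8 was also lost without experiment 7 (adjusted p = 0.10), and the COL1A1 call without experiment 5 or 6 (adjusted p = 0.0516 and 0.0573). With the narrow experiment 4 array (SUM159, DMSO, Aldefluor+) left out, the adjusted p was 0.0500 for COL6A3 under ID8, just above the threshold, and 0.0996 for COL1A1, while the averaged COL6A3 call was kept. With SUM159 arrays alone COL6A3 under ID8 had an adjusted p of 0.0695, and with all 53617 probe sets tested it had 0.0971 and the COL1A1 call 0.0954. SUM159 Aldefluor+ cells yielded 1.12 to 1.40 times the RNA per sorted cell of Aldefluor- cells under DMSO and 1.07 to 1.20 times under ID8, in 3 of 3 experiments each, and the part of this in the fraction differences was not tested. The summed linear signal of the 5 fibroblast markers was 23.2 to 24.9 in DMSO Aldefluor- and 21.5 to 24.7 in DMSO Aldefluor+ arrays, and 20.8 to 22.1 and 19.3 to 23.6 under ID8, so the ranges of the fractions overlapped. The summed signals of the 5 endothelial and 5 leukocyte markers were higher in DMSO Aldefluor+ than in DMSO Aldefluor- arrays (10.4 to 12.6 against 8.74 to 10.0, and 22.7 to 27.4 against 19.3 to 22.7), overlapped under ID8, and stood beside defining markers at low signal. Among the leukocyte markers only CD68 was not low signal, with a 24-array mean of 3.56. The part of these sums in the result was not tested.

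In T47D the Aldefluor difference of COL6A3 was 0.19 ± 0.199 under DMSO and -0.18 ± 0.199 under ID8, opposite in sign, and neither passed the test (adjusted p = 0.870 and 0.871). Its T47D arrays lay between 3.15 and 3.95, and the fractions overlapped under both treatments. The difference between the lines was -0.95 ± 0.199 (95% interval -1.37 to -0.524; adjusted p = 0.0464). COL6A3 was the 1 gene of 42 called in this comparison, where 0.478% of all genes were called, and 3 of the 42 had an unadjusted p under 0.05, as did 9.38% of all genes. The call was lost without any 1 experiment, with adjusted p between 0.0702 and 0.220. It was also lost with all probe sets tested (adjusted p = 0.0937) and without the narrow array (adjusted p = 0.0912). For COL1A1 the difference between the lines was -0.41 ± 0.188 and did not pass the test (adjusted p = 0.510).

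The 2 other main chains of type VI collagen, which assemble with COL6A3, did not follow it. COL6A1, a low-signal gene, had group means of 2.04, 2.21, 1.65 and 1.83 in SUM159 DMSO Aldefluor-, DMSO Aldefluor+, ID8 Aldefluor- and ID8 Aldefluor+ cells. It was not called for the fraction (0.16 ± 0.177 under DMSO, 0.18 ± 0.177 under ID8). All 6 of its ID8 arrays were below all 6 DMSO arrays, with an averaged ID8 difference of -0.39 ± 0.125 that did not pass the test (unadjusted p = 0.00703, adjusted p = 0.212). It was the 1 gene of 42 whose ID8 and DMSO arrays did not overlap, compared with 1.88% of all genes without overlap in either direction. COL6A2 had group means between 1.74 and 2.30 over both lines and passed no test. Over the 5 chains of the class the median of the averaged SUM159 Aldefluor difference was -0.03, with 1 lower and 4 not called.

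**Figure D3:**
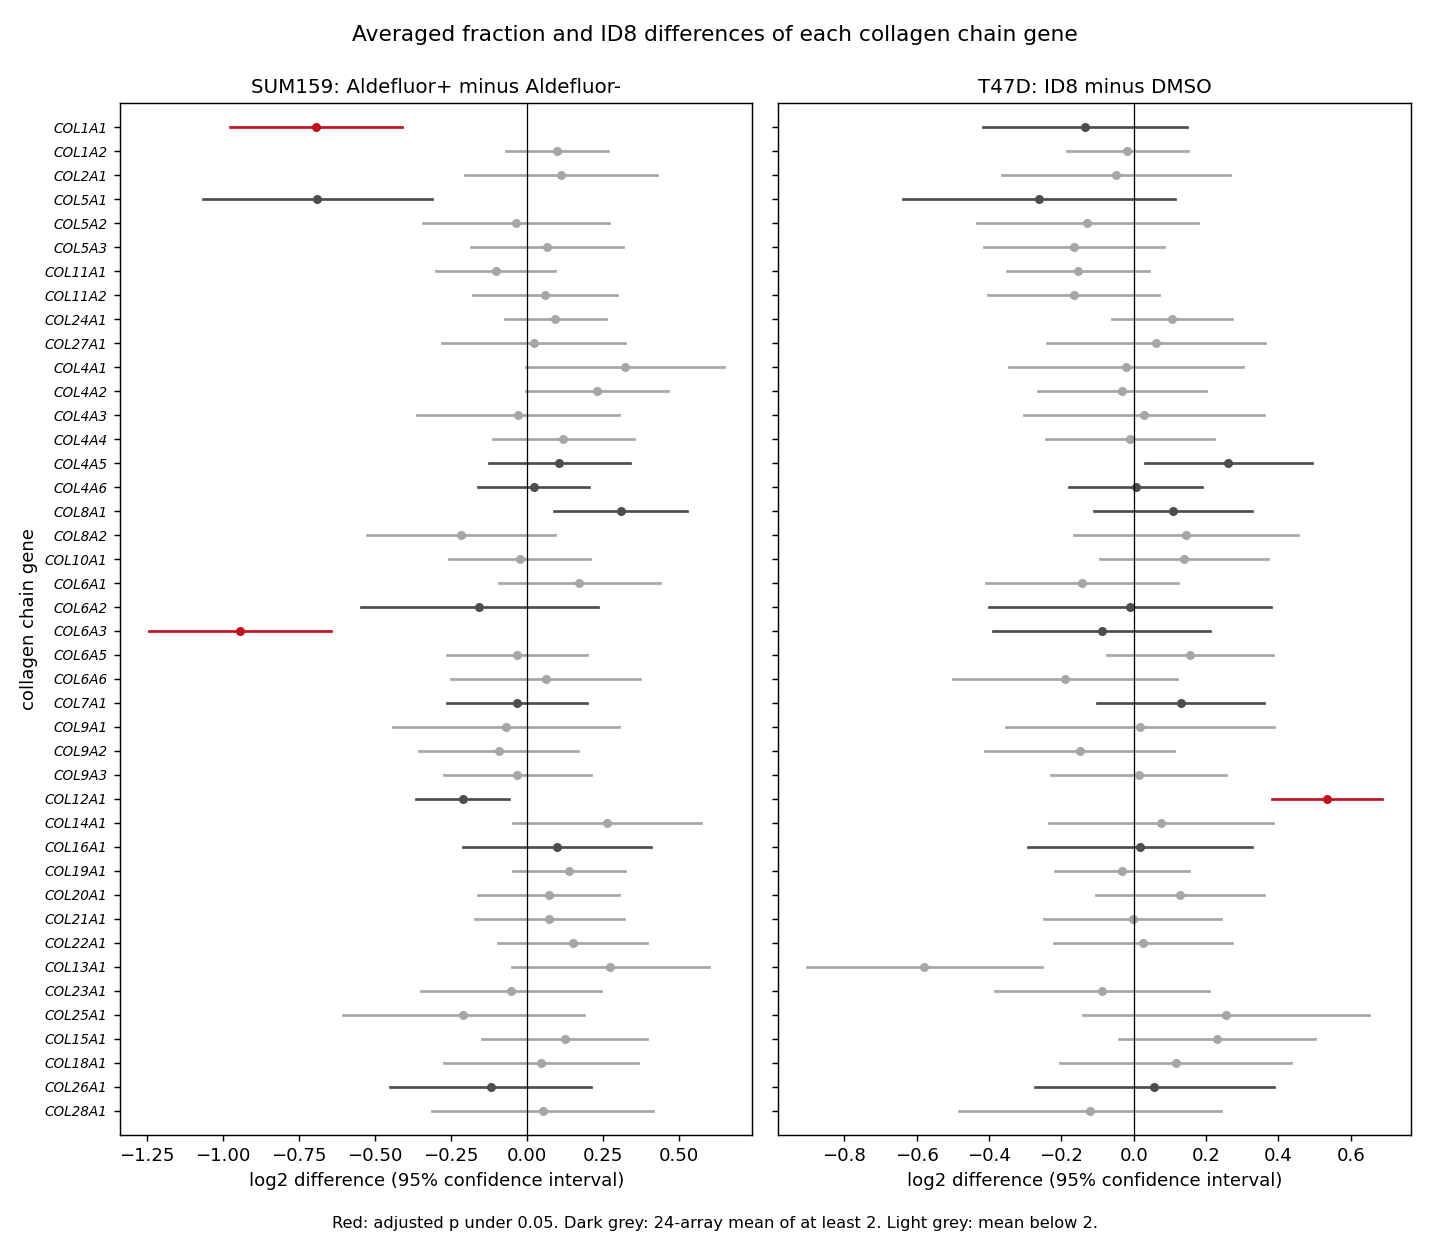
Fitted log2 difference (point) with its 95% confidence interval from limma (line) for each of the 42 genes, for Aldefluor+ minus Aldefluor- averaged over treatments in SUM159 (left) and ID8 minus DMSO averaged over fractions in T47D (right), with red for an adjusted p under 0.05, dark grey for other genes with a 24-array mean of at least 2 and light grey for means below 2. COL6A3 and COL1A1 are the red genes at left, with intervals from -1.24 to -0.644 and from -0.975 to -0.411, and COL12A1 is the red gene at right.

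ID8 was followed by no called change of any of the 42 collagen chain genes in SUM159. The probe set shared by COL3A1 and MIR3606, which is not among them, was called with ID8 in Aldefluor- cells in a fit over all probe sets (0.98, adjusted p = 0.0121). The count was 0 of 42 in Aldefluor+ cells (0.241% of all genes called), in Aldefluor- cells (0.277%) and averaged over fractions (0.688%). At an unadjusted p under 0.05 in limma there were 4, 4 and 5 of the 42 genes, or 9.52%, 9.52% and 11.9%, compared with 10.3%, 8.03% and 11.3% of all genes. The median difference of the 42 genes was 0.004 in Aldefluor+ and -0.03 in Aldefluor- cells, and over all genes it was -0.01 in each. In the test of whether the response differed between fractions 0 of 42 genes were called (0.00447% of all genes), and 1 had an unadjusted p under 0.05, as did 7.06% of all genes.

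COL8A1, which encodes a short-chain network collagen of vessel walls and the cornea, read 3.92, 4.15 and 4.22 in SUM159 DMSO Aldefluor- cells and 4.50, 4.54 and 4.80 in ID8 Aldefluor- cells. The groups did not overlap, and the difference of 0.52 ± 0.145 did not pass the test (unadjusted p = 0.00269, adjusted p = 0.249). In Aldefluor+ cells it read 4.67, 4.62 and 4.38 under DMSO and 4.63, 4.82 and 4.86 under ID8, which overlapped. Its DMSO Aldefluor- arrays were thus the lowest of the 4 SUM159 groups, and the Aldefluor difference under DMSO was 0.46 ± 0.145 (unadjusted p = 0.00614, adjusted p = 0.462). The 12 SUM159 arrays averaged 4.51 ± 0.29 and the 12 T47D arrays 3.79 ± 0.17 (SD), the widest distance between lines among the 42 genes, as a description of batch-adjusted values.

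The type IV chains form 3 pairs of genes that start head to head, 127 bases apart for COL4A1 and COL4A2 on chromosome 13, 419 bases for COL4A3 and COL4A4 on chromosome 2 and 380 bases for COL4A5 and COL4A6 on chromosome X (RefSeq, GRCh38.p14). COL4A1 and COL4A2, the chains of the common basement membrane, were both low signal. In SUM159 ID8 cells COL4A1 read 1.36, 0.93 and 1.21 in Aldefluor- and 2.06, 1.69 and 1.37 in Aldefluor+ arrays, and COL4A2 read 1.89, 1.78 and 1.66 in Aldefluor- and 2.19, 1.95 and 2.19 in Aldefluor+ arrays. Neither gene's groups overlapped there, and neither passed the test. COL4A3 and COL4A4, chains of the mature kidney membrane, stayed below 1.55 on all 24 arrays.

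COL4A5 and COL4A6, the type IV pair with both means above 2, had these values with ID8 in SUM159. COL4A6 read 3.36, 3.22 and 3.14 in DMSO Aldefluor+ and 2.80, 2.65 and 2.88 in ID8 Aldefluor+ cells, a difference of -0.46 ± 0.123 that did not pass the test (unadjusted p = 0.00164, adjusted p = 0.155). Averaged over fractions it was -0.33 ± 0.0867 (adjusted p = 0.100). COL4A5 read 3.86, 3.49 and 3.36 in DMSO Aldefluor+ and 3.47, 3.51 and 3.68 in ID8 Aldefluor+ cells, which overlapped, with a difference of -0.02 ± 0.154 (adjusted p = 0.980). In Aldefluor- cells COL4A5 was lower with ID8 without overlap, at 3.48 to 3.68 under DMSO and 3.19 to 3.42 under ID8. COL4A6 overlapped there, at 2.975 to 3.150 under DMSO and 2.836 to 2.978 under ID8. Neither gene was called in Aldefluor- cells. The difference between the 2 genes' responses was not tested.

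COL13A1, a low-signal gene for a transmembrane collagen of cell adhesions, read 1.91, 1.97 and 1.64 in T47D DMSO Aldefluor+ cells and 0.79, 1.11 and 1.11 in ID8 Aldefluor+ cells. The groups did not overlap, and the difference of -0.84 ± 0.216 did not pass the test (unadjusted p = 0.00138, adjusted p = 0.133). Averaged over fractions it was -0.58 ± 0.153 (adjusted p = 0.125). All 6 ID8 arrays were below all 6 DMSO arrays. The T47D treatments did not overlap for 2 of the 42 genes, COL12A1 in the other direction being the second. Without overlap in either direction were 1.54% of all genes.

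Over all 42 chains, the SUM159 Aldefluor groups under ID8 did not overlap for 15 genes (35.7%), compared with 17% of all genes. Of these 15 genes 9 were higher and 6 lower in Aldefluor+ cells, and 10 were low signal. For ID8 in SUM159 Aldefluor+ and Aldefluor- cells they did not overlap for 7 and 10 genes (18.7% and 18.9% of all genes), and for the Aldefluor difference under DMSO for 8 (17.3%). For ID8 in T47D Aldefluor+ and Aldefluor- cells they did not overlap for 7 and 4 genes (21.2% and 16.5% of all genes), and for the T47D Aldefluor difference under DMSO and ID8 for 7 and 7 (19.1% and 19.5%). At an unadjusted p under 0.05 the SUM159 Aldefluor comparison under ID8 held 6 of 42 genes (14.3%), compared with 7.52% of all genes. The standard error of a difference between a pair of groups was 0.101 for COL12A1, the lowest of the 42 genes, 0.179 at the median and 0.264 for COL25A1, the highest.

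Of the genes that fold and hydroxylate collagen chains, 22 of the 23 listed were measured and FKBP14 was called. FKBP14, a prolyl isomerase of the endoplasmic reticulum that acts on procollagen, read 5.35, 5.25 and 5.34 in SUM159 DMSO Aldefluor+ cells and 6.06, 6.07 and 6.09 in ID8 Aldefluor+ cells. It rose by 0.76 ± 0.116 (1.69-fold; adjusted p = 0.0112) there and by 0.52 ± 0.0818 averaged over fractions (adjusted p = 0.00433). Of all genes 0.241% and 0.688% were called in these comparisons. Without experiments 2, 3 and 4 in turn the adjusted p was 0.227, 0.169 and 0.0950 in Aldefluor+ cells and 0.117, 0.101 and 0.0660 averaged, and with SUM159 arrays alone it was 0.0628 in Aldefluor+ cells. In the other comparisons no gene of the list was called. The lowest p there was that of PLOD2, a lysyl hydroxylase, at -0.56 ± 0.143 for the SUM159 Aldefluor difference under ID8 (unadjusted p = 0.00126, adjusted p = 0.191). For the T47D Aldefluor difference averaged over treatments PLOD2 also had the lowest p of the list, at -0.35 ± 0.101 (adjusted p = 0.142).

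All 14 genes listed for procollagen trimming and cross-linking were measured, and LOXL1 was called. LOXL1 is a lysyl oxidase that cross-links matrix proteins. In SUM159 its signal was 4.29, 4.65 and 4.41 in DMSO Aldefluor-, 4.30, 3.69 and 4.12 in DMSO Aldefluor+, 3.46, 4.05 and 3.98 in ID8 Aldefluor- and 3.37, 3.18 and 3.13 in ID8 Aldefluor+ cells. It fell with ID8 by 0.72 on the log2 scale averaged over fractions (SE 0.147; adjusted p = 0.0306). In T47D it read 3.23, 3.49 and 3.19 in DMSO Aldefluor-, 4.14, 4.50 and 4.05 in DMSO Aldefluor+, 3.55, 2.96 and 3.46 in ID8 Aldefluor- and 3.81, 3.75 and 3.87 in ID8 Aldefluor+ cells. All 6 Aldefluor+ arrays were above the 6 Aldefluor- arrays, with an averaged difference of 0.70 ± 0.147 (adjusted p = 0.0303). The Aldefluor difference of LOXL1 differed between the lines by -1.22 ± 0.208 (adjusted p = 0.012). Of all genes 0.688% were called for the averaged ID8 response in SUM159. The shares were 0.875% for the averaged T47D Aldefluor difference and 0.478% for the difference between the lines. Leaving out any experiment of the line ended the SUM159 and the T47D call (adjusted p from 0.109 to 0.206 and from 0.173 to 0.199), as did experiment 5 or 7 or the narrow array for SUM159 (0.0607, 0.0586 and 0.0720) and experiment 4 for T47D (0.0684). Both calls were also lost with 1 line's arrays (0.0839 and 0.0604) and with all probe sets tested (0.0687 and 0.0674), and the line difference was lost without experiment 3, 4, 5, 6 or 7 (adjusted p from 0.0602 to 0.0968).

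Of the 10 collagen receptors listed 8 were measured, and the integrin alpha chains ITGA2 and ITGA10 were called. ITGA2, the alpha chain of an epithelial collagen receptor, read 5.93, 6.16 and 6.09 in SUM159 ID8 Aldefluor- and 6.51, 6.68 and 6.77 in ID8 Aldefluor+ cells, a difference of 0.59 ± 0.115 (adjusted p = 0.0468). Under DMSO it read 6.27, 6.08 and 6.23 in SUM159 Aldefluor- and 6.44, 6.20 and 6.24 in Aldefluor+ cells, which overlapped. Its SUM159 Aldefluor difference was not called under DMSO or averaged over treatments. In T47D it was lower in Aldefluor+ cells, at 5.62 to 5.77 on the 6 Aldefluor+ arrays and 6.02 to 6.20 on the 6 Aldefluor- arrays, with an averaged difference of -0.43 ± 0.0811 (adjusted p = 0.0147). The Aldefluor difference of ITGA2 differed between the lines by 0.78 ± 0.115 (adjusted p = 0.00414). ITGA10, the alpha chain of a cartilage collagen receptor, had a 24-array mean of 2.05, just above the low-signal limit of 2. It read 2.39, 2.42 and 2.35 in SUM159 ID8 Aldefluor- and 1.64, 1.68 and 1.64 in ID8 Aldefluor+ cells. The difference was -0.74 ± 0.142 (adjusted p = 0.0468, limma), with -0.55 ± 0.101 averaged over treatments (adjusted p = 0.0319). Of all genes 0.201% were called for the SUM159 Aldefluor difference under ID8 and 0.219% averaged over treatments. The shares were 0.875% for the averaged T47D Aldefluor difference and 0.478% for the difference between the lines. Without 1 experiment of the line the adjusted p rose to between 0.220 and 0.352 for ITGA2 in SUM159, between 0.0914 and 0.281 for ITGA2 in T47D and between 0.285 and 0.435 for ITGA10 under ID8 (0.156 to 0.355 averaged). ITGA2 in SUM159 was also lost without experiment 5, 6 or 7 (0.105, 0.122 and 0.0961), and ITGA10 without experiment 5 or 7, under ID8 (0.0852 and 0.0918) and averaged (0.0513 and 0.0588). With an intensity trend ITGA10 had 0.107 under ID8 and 0.0721 averaged. With the narrow array left out, ITGA2 and ITGA10 under ID8 had 0.0500, just above the threshold, and ITGA10 averaged 0.0996. With 1 line's arrays, ITGA2 had 0.227 in SUM159 and 0.0590 in T47D and ITGA10 had 0.120 under ID8 and 0.0714 averaged, and with all probe sets the SUM159 calls had 0.0974 for ITGA2, 0.0979 for ITGA10 under ID8 and 0.0762 averaged. The line difference of ITGA2 was lost without experiment 5 or 6 (adjusted p = 0.0678 and 0.0602).

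None of the 8 collagenases and turnover genes and none of the 10 fibril partners in the matrix was called in any of the 16 comparisons in limma. Between 0% and 0.875% of all genes were called in a comparison. Of the collagenases and turnover genes 7 were low signal, and 0 of 8 had an unadjusted p under 0.05 in any comparison. MMP2, a gelatinase, differed by -0.23 ± 0.13 between the SUM159 fractions averaged over treatments (adjusted p = 0.677). Of the fibril partners 3 of 10 had an unadjusted p under 0.05 for the averaged ID8 response in SUM159, compared with 11.3% of all genes, and 0 to 2 in each of the other comparisons. BGN (biglycan, a small proteoglycan) differed by 0.44 ± 0.109 with ID8 in SUM159 (adjusted p = 0.081). FBN1 (fibrillin, a microfibril protein, low signal) differed by -0.72 ± 0.16 between the SUM159 fractions (adjusted p = 0.0939).

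**Figure D4:**
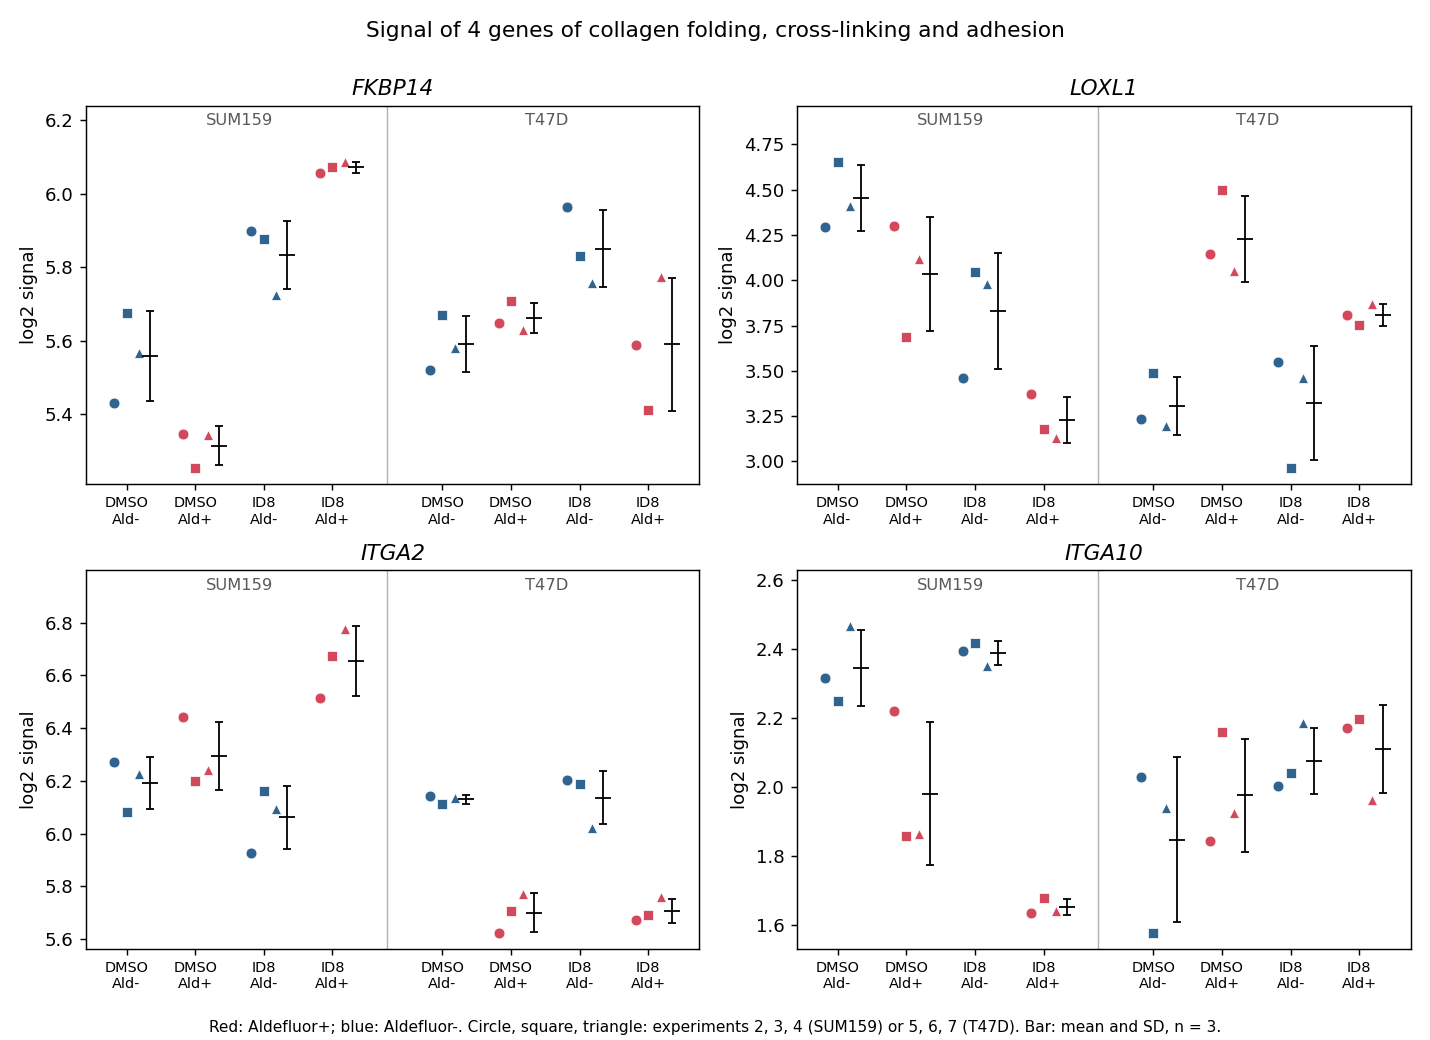
Log2 signal on every array of the 4 genes called among the folding, cross-linking and receptor lists, with symbols for the experiment and bars for the mean and SD (n = 3). SUM159 FKBP14 lies between 6.06 and 6.09 in ID8 Aldefluor+ cells and between 5.25 and 5.35 in DMSO Aldefluor+ cells, and T47D LOXL1 is higher in Aldefluor+ than in Aldefluor- cells under both treatments.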

How the data were processed

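RNA of sorted SUM159 and T47D cells was amplified and hybridised to Human Gene ST 2.1 arrays, per the labels' protocols and the series' design text. The authors deposited log2 values for 53617 probe sets, made with robust multiarray averaging and adjusted for experimental and processing batch with ComBat, per the series' design text. The batches and covariates given to ComBat are not stated in these sources. Its effect on the differences between the lines in ID8 response and in Aldefluor difference was not tested. The number of arrays limits the precision.

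Probe sets were named through the platform annotation: 23871 had 1 symbol, 1842 several and 27904 none. Symbols were updated through RefSeq (GRCh38.p14) for 22569 probe sets. The members and gene lists were chosen with earlier results of these data known.

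A limma 3.58.1 model (R 4.3.3) was fitted to the 24 arrays of 22395 genes, with a mean for each of the 8 groups and blocks for experiment nested in line, since the design text accounts for experimental batch. It gave 16 comparisons: 8 pairs, 4 averages, 2 interactions and 2 differences between lines. P-values were adjusted by Benjamini-Hochberg over all genes and called under 0.05. The script was tested on simulated data. The experiment numbers come from the sample titles. Arrays of the same experiment and line had correlations of their deviations from group means of -0.408 to -0.266 (36 pairs), and others 0.0986 to 0.244 (72 pairs), in values whose experiment means had already been aligned (SD of the mean deviation at most 0.0226).

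Genes were named when called, when the unadjusted p was under 0.01 with an absolute log2 difference of at least 0.5 in 1 of the 8 pairs, among the 6 highest means, or as a chain of a type I, IV or VI pair or trio. Of the other lists, called genes and otherwise the lowest p were named. COL7A1, COL16A1, COL26A1, COL25A1 and COL28A1 were named in addition, after their values were seen. Alternatives were no block, 1 line's arrays, an intensity trend, a mean of at least 2, quantile normalization, averaged probe sets, all probe sets and leaving out experiments or 1 array.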

Additional observations from a re-analysis of the deposited data

Results flagged for a closer look

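The ID8 response of COL12A1 differed between the lines by a test of the difference itself, -0.64 ± 0.101 on the log2 scale for SUM159 minus T47D (adjusted p = 0.00661, limma). The call was lost in 4 of 13 alternatives, without experiment 3, 5, 6 or 7 (adjusted p from 0.0571 to 0.0804). The averaged responses were -0.11 in SUM159 and 0.53 in T47D, where all 6 ID8 arrays were above the 6 DMSO arrays. The effect of the batch adjustment on the difference between the lines was not tested.

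The Aldefluor difference of COL6A3 also differed between the lines by a test of the difference, -0.95 ± 0.199 for SUM159 minus T47D (adjusted p = 0.0464, limma). The call was kept in 5 of 13 alternatives and lost without any 1 experiment (adjusted p from 0.0702 to 0.220), without the narrow array (0.0912) and with all probe sets tested (0.0937). In SUM159 the averaged difference was -0.94, with all 6 Aldefluor+ arrays below the 6 Aldefluor- arrays, and in T47D the fractions overlapped. Here too the effect of the batch adjustment was not tested.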

How the results depend on the processing

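The 16 differences of collagen chain genes that were rerun, those called or past an unadjusted p of 0.01 and an absolute difference of 0.5 in a pair, kept their direction in every alternative; differences of other named genes were not rerun. Of the values under an alternative, 172 kept their side of the threshold, 43 were no longer called and 5 were newly called. Fitted with no replicate block, the number of the 42 genes called was 2 for ID8 in SUM159 Aldefluor+ cells (all genes called 1.77%, from 0.241% with the block), 2 for ID8 averaged in SUM159 (2.99% from 0.688%), 1 for the SUM159 fraction difference under DMSO (0.393% from 0.0223%), 4 under ID8 (0.929% from 0.201%), and 2 for ID8 in T47D Aldefluor+ cells (2.37% from 0.375%) and averaged (2.51% from 0.505%), so calls rose over all genes too. With the arrays of 1 line it was 0 for the SUM159 fraction difference under ID8 (0.0714% of all genes) and 0 for the T47D fraction difference under DMSO (0.107%) and averaged (0.572%). With an intensity trend it was 1 for ID8 in SUM159 Aldefluor+ cells (0.603%) and 2 for the SUM159 fraction difference under ID8 (0.255%). With the 11418 genes of a mean of at least 2, of which 11 are collagen chain genes, it was 2 of 11 for that fraction difference (0.534%) and 1 of 11 (COL4A6) for ID8 averaged in SUM159 (2.86%). With all probe sets tested it was 0 for that fraction difference (0.0392% of probe sets), 1 averaged over treatments (0.0653%) and 0 for the difference between lines in the fraction effect (0.187%). Leaving out 1 experiment, or the narrow SUM159 array, gave from 0 to 1 for the SUM159 fraction difference under ID8, 0 to 2 averaged, 0 to 2 for ID8 in T47D Aldefluor+ cells and averaged, 0 to 1 for the T47D fraction difference under DMSO and averaged, 0 to 1 for the line difference in ID8 response and 0 for that in the fraction effect. The 4 called genes of the folding, cross-linking and receptor lists, the marker AXL and the COL3A1 probe set were also rerun. Their alternatives were chosen after seeing the data, and none changed direction. Where a count moved, the cause was not tested, except that leaving out arrays leaves fewer samples and testing all probe sets raises the number of tests. The signal was below 2 for 31 of the 42 genes; whether this limited the calls was not tested.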

Other observations

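COL3A1, the chain of type III collagen, could not be given a value of its own, because its probe set also names the miRNA gene MIR3606. In a fit over all 53617 probe sets, this low-signal probe set read 1.33 ± 0.101 in SUM159 DMSO Aldefluor- cells and 2.31 ± 0.202 in ID8 Aldefluor- cells (SD, n = 3), a difference of 0.98 ± 0.143 (adjusted p = 0.0121, limma; 0.097% of all probe sets called). In SUM159 Aldefluor+ cells the difference with ID8 was 0.16 ± 0.143 (adjusted p = 0.823). In T47D DMSO cells it read 1.35 ± 0.0549 in Aldefluor- and 2.24 ± 0.0553 in Aldefluor+ cells, a difference of 0.89 ± 0.143 (adjusted p = 0.0308; 0.0541% of all probe sets called). It was also called for ID8 averaged over fractions in SUM159 (0.57 ± 0.101, adjusted p = 0.0254, 0.27% of all probe sets called), for the T47D Aldefluor difference averaged over treatments (0.62 ± 0.101, adjusted p = 0.0118, 0.379%) and for the difference between the lines in the latter (-0.76 ± 0.143, adjusted p = 0.0496, 0.187%). Without experiment 2, 3, 4 or 5 the call in SUM159 Aldefluor- cells was lost (adjusted p from 0.0534 to 0.336), and without any 1 of the 6 experiments the call in T47D DMSO cells was lost (adjusted p from 0.057 to 0.465). The averaged SUM159 call and the line difference were also lost without any 1 experiment (adjusted p from 0.0503 to 0.284 and from 0.0957 to 0.232), and the averaged T47D call without experiment 5, 6 or 7 (0.221, 0.192 and 0.113). The name of the probe set does not settle which of the genes it measured.

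COL11A2, a low-signal fibrillar chain, had 7 probe sets with means from 1.68 to 1.74. AXL, a receptor tyrosine kinase used as a mesenchymal marker, fell with ID8 in SUM159 by 0.62 on the log2 scale averaged over fractions (SE 0.119; adjusted p = 0.0193, limma), and the call was lost without experiment 2, 3 or 4 (adjusted p = 0.231, 0.168 and 0.170).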
